A study of Mus musculus with 6 samples.

Results

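The aquaporins are membrane channels that let water, and in some members glycerol, cross the cell membrane. The 8 genes described here (Aqp1, Aqp2, Aqp3, Aqp4, Aqp5, Aqp6, Aqp9 and Aqp11) were chosen by gene symbol, without use of their values, from the 52636 genes of a bulk RNA-seq table. The table held vestibular epithelium from 6 male 129S1/SvImJ mice aged 2 to 4 months, 1 library per animal, each pooled from 2 utricles and 6 cristae. The 3 IDPN animals drank 3,3'-iminodipropionitrile, a nitrile toxic to the sensory hair cells (HCs), at 30 mM for 8 weeks, and the 3 Control animals drank water without it. Both groups were otherwise of the same strain and sex.

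Channels of this family work as tetramers in which each subunit has its own pore. Water-selective members such as Aqp1, Aqp2, Aqp4 and Aqp5 are set apart from the aquaglyceroporins Aqp3 and Aqp9, which also pass glycerol, and from Aqp11, an intracellular member with a divergent pore motif. In the inner ear, Aqp4 is known from supporting cells, Aqp1 from connective tissue cells under the epithelium, and Aqp2 and Aqp5 from epithelia next to the endolymph. The comparison asked how the levels of these channels differed in vestibular tissue under a chronic ototoxic exposure.

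The libraries held 40474800 to 43566300 estimated counts, rounded to 6 digits, with no difference in depth found between the groups (exact permutation test, two-sided, p = 0.5, with 3 against 3 libraries and a smallest possible p of 0.1). Values for a group are given in the order of its libraries 1, 2 and 3. The 8 aquaporins took 973, 1575 and 1978 counts in the Control libraries and 2031, 1615 and 2124 in the IDPN libraries. That was 23.0 to 52.5 CPM (counts scaled to a common library total). The HC marker list summed to 26985 to 27679 normalized counts in Control and 16536 to 17743 in IDPN libraries, with 8 of its 10 genes called lower by DESeq2 and 7 by edgeR. The supporting cell list summed to 412336 to 604456 in Control and 308830 to 363724 in IDPN libraries, with 2 of its 10 genes, Gjb6 and Sparcl1, called lower by DESeq2 and 0 by edgeR. Over all tested genes, 3.42% were called lower by DESeq2 and 2.19% by edgeR, under the rule given below. In such bulk tissue, fewer cells of a type and less RNA per cell cannot be told apart.

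No aquaporin was called different between IDPN and Control animals. A gene was called when its adjusted p (Padj, DESeq2) was under 0.05 and its fold change over 1.5 in either direction, a rule that 5.75% of all tested genes met (2.32% higher and 3.42% lower in IDPN animals). The same rule on edgeR values called 3.21% of genes. DESeq2 gave an adjusted p for 6 of the 8 aquaporins, of which 0 were called. The number with an unadjusted p under 0.05 was also 0 by DESeq2, and 0 among the 4 that edgeR kept, and no alternative setting called any of the 8. Only Aqp4, Aqp1 and Aqp11 had a mean above 100 normalized counts, so the depth behind the other 5 was low. The median log2 fold change of the 6 tested aquaporins was 0.69, against 0.015 over all tested genes. The 4 values above 0 had wide errors: Aqp1 (SE 0.65), Aqp2 (SE 0.61), Aqp5 (SE 1.09) and Aqp9 (SE 1.25). The 2 below 0, Aqp4 (SE 0.18) and Aqp11 (SE 0.20), had the smallest errors.

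**Figure D1:**
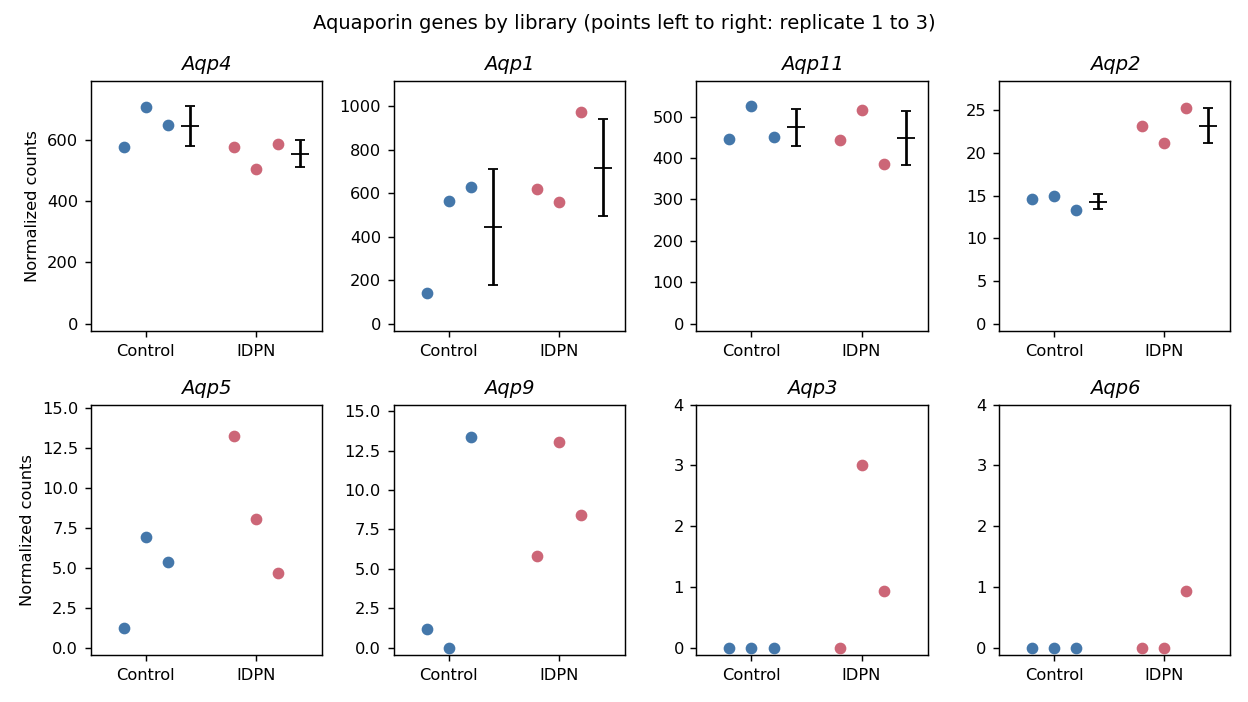
Normalized counts (vertical axes, a scale of its own in each panel) of the 8 aquaporin genes in the 3 Control libraries (blue) and the 3 IDPN libraries (red). Each point is 1 library, and in the upper row the black bars give the group mean ± SD. Aqp2 is the only gene whose groups do not overlap, and Control 1 stands low for Aqp1.

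Aqp4, the main water channel of glia and also a channel of inner ear supporting cells, had the highest mean normalized count of the 8. It lies on chromosome 18 of GRCm38 (15389496 to 15410982, minus strand). Its normalized counts were 575, 705 and 649 in the Control libraries and 574, 503 and 586 in the IDPN libraries. The groups overlapped, because IDPN 3 lay above Control 1. The means were 643 ± 65.4 in Control and 554 ± 44.9 in IDPN animals (SD, n = 3 each), with a log2 fold change of -0.21 (SE 0.18, DESeq2 Padj = 0.630). The 95% confidence interval of -0.57 to 0.14 stopped just short of a decrease of 1.5-fold (-0.58 on the log2 scale). With 1 library left out, the estimate ranged from -0.29 (SE 0.20, without Control 1) to -0.15 (SE 0.21, without Control 2). Intervals for those fits were not worked out. Scaling by total counts turned the sign (0.043), while the median gene moved up by 0.25 under that scaling. The 100 most abundant genes took 48.3% to 54.5% of the counts in Control and 44.6% to 48.2% in IDPN libraries. The supporting cell list, none of whose genes edgeR called, had a lower sum in every IDPN library. That sum came mostly from Gjb6, Sparcl1 and Gjb2. Of the 10 genes, 8 had a log2 fold change below 0 and 2 above 0. The part of this list in the Aqp4 level was not tested. Relative to the median gene, Aqp4 stood at -0.23 with the usual size factors and at -0.22 with total counts.

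Aqp11, an intracellular channel of the endoplasmic reticulum, was nearly as abundant in counts and showed the smallest difference. It lies on chromosome 7 (97724006 to 97738289, minus strand). Normalized counts were 446, 525 and 450 in Control and 444, 515 and 384 in IDPN animals, so the groups overlapped almost fully. The means were 474 ± 44.5 and 448 ± 65.4 (SD, n = 3 each). The log2 fold change was -0.08 (SE 0.20, DESeq2 Padj = 0.907), with a 95% confidence interval of -0.47 to 0.31 that held neither a rise nor a decrease of 1.5-fold. The sign turned without IDPN 3 (0.015) and under total-count scaling (0.16), but relative to the median gene it was -0.096 with the usual size factors and -0.10 with total counts.

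Aqp1, a water channel of red blood cells, many endothelia and connective tissue cells, varied far more between animals than Aqp4 or Aqp11 did. It lies on chromosome 6 (55336432 to 55348555, plus strand). Its normalized counts were 142, 566 and 629 in the Control libraries and 621, 558 and 971 in the IDPN libraries. Control 1 was the low library and IDPN 3 the high one, and the remaining 4 lay close together from 558 to 629. The means were 445 ± 265 in Control and 717 ± 223 in IDPN animals (SD, n = 3 each), or coefficients of variation of 59.4% and 31.1%. For Aqp4 these coefficients were 10.2% and 8.11%.

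The log2 fold change of Aqp1 was 0.69 (SE 0.65, DESeq2 Padj = 0.674; edgeR Padj = 0.459), with a 95% confidence interval of -0.58 to 1.95. The size of the difference rested on single libraries. Without Control 1 it was 0.26 (SE 0.27, Padj = 0.810), and without IDPN 3 it was 0.40 (Padj = 0.890). The value was above 0 in all 14 alternative settings.

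**Figure D2:**
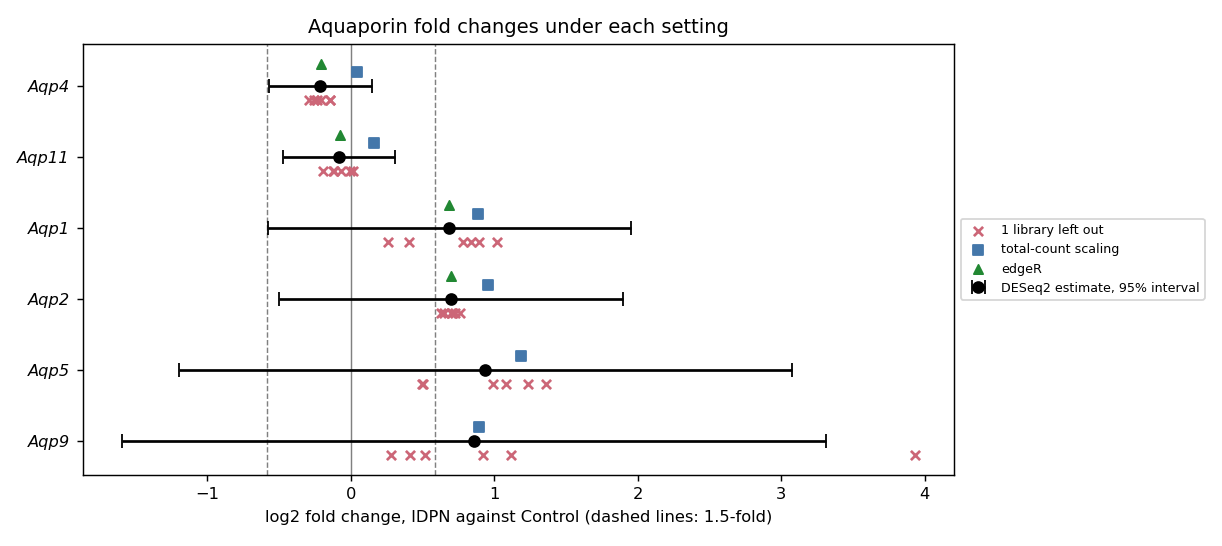
Log2 fold change of IDPN against Control (horizontal axis) for the 6 aquaporins with an adjusted p. Black points and bars are the DESeq2 estimate and its 95% interval, and the other marks give edgeR (no mark for Aqp5 and Aqp9, which it filtered out), total-count scaling and each fit with 1 library left out. Every black interval crosses 0, and the intervals of Aqp5 and Aqp9 are the widest. The mark at 3.93 for Aqp9 is the fit without Control 3.

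The low Aqp1 level in Control 1 was shared with few other genes. Its Control 1 value was 0.238 of the mean of Control 2 and 3, whereas the median gene stood at 0.997. Of 11770 genes with a mean of at least 100 normalized counts, 39 (0.331%), Aqp1 among them, lay at or below its ratio. A high Control 3 alone could also bring a gene in, as for Hspa1a (710, 680 and 26026 normalized counts in the Control libraries). This set was looked at after its values were seen and was given no test.

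A few of the 39 are known from the non-sensory lining of the labyrinth, and the set also held genes of other kinds, such as Rac1, Lamp1 and Ybx1. Otx2, a transcription factor, had 0, 103 and 199 normalized counts in the Control libraries and 146, 140 and 293 in the IDPN libraries. Vmo1 had 0, 807 and 1206 in Control and 504, 408 and 1303 in IDPN animals. Slc26a7, an anion exchanger, had 2.43, 200 and 288 in Control and 134, 97.4 and 382 in IDPN animals. These 3 genes, picked after their values were seen, were near 0 in Control 1 and highest in IDPN 3. Of the 39 genes, 12 (30.8%), Aqp1 among them, were lowest in Control 1 and highest in IDPN 3. Among the 11770 genes this was 4.53%, but the 39 had been selected by their Control 1 ratio. Hes1, a Notch target, was also low in Control 1 (112, 605 and 642) but highest in IDPN 2 (671, 1014 and 707). The part of these genes' source in the Aqp1 difference was not tested.

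**Figure D3:**
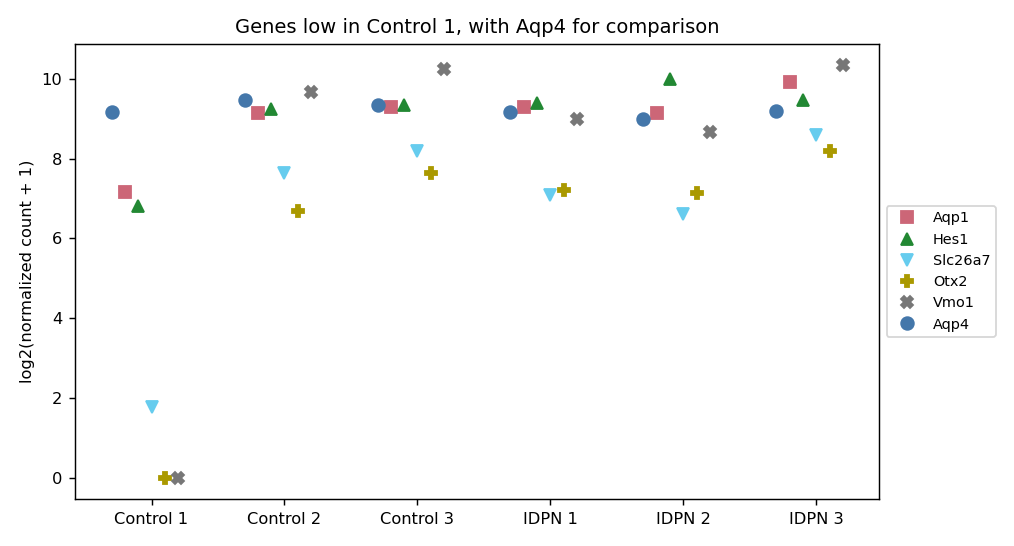
Level of Aqp1, of 4 other genes that were low in Control 1, and of Aqp4, as log2(normalized count + 1), in each of the 6 libraries. Otx2 and Vmo1 are at 0 in Control 1, and Aqp4 at 575 normalized counts is not low there.

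Marker lists of the other cells known for Aqp1 moved as follows, and their part in its level was not tested. The erythroid list summed to 17157, 36635 and 16167 normalized counts in the Control libraries and 40335, 49092 and 34690 in the IDPN libraries, with 4 of its 5 tested genes called higher by DESeq2 and 0 by edgeR. The endothelial list summed to 11655, 6893 and 9748 in Control and 9923, 9932 and 6693 in IDPN animals, with 1 of 8 genes (Kdr) called lower by both tests. The fibroblast list summed to 40445, 31659 and 21513 in Control and 39983, 39180 and 37356 in IDPN animals, with 0 of 8 genes called. For comparison, DESeq2 called 2.32% of all tested genes higher and 3.42% lower, and edgeR called 1.02% and 2.19%. The median GC content of the 39 genes was 55.1% against 50.7% for the 11770, and offsets for GC content left Aqp1 at 145 in Control 1 with a log2 fold change of 0.69.

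Aqp2, the vasopressin-regulated water channel of the kidney collecting duct, was the only aquaporin whose groups did not overlap, at a low level. Its counts were 12, 13 and 15 in the Control libraries and 28, 21 and 27 in the IDPN libraries. As normalized counts these were 14.6, 15.0 and 13.3 against 23.2, 21.1 and 25.2, so every IDPN library lay above every Control library. Among all tested genes 11.1% had no overlap with IDPN higher, 11.4% with IDPN lower, and 22.5% in either direction. The means were 14.3 ± 0.858 and 23.2 ± 2.06 (SD, n = 3 each), a ratio of 1.62. The difference did not pass the test, with a log2 fold change of 0.70 (SE 0.61, DESeq2 Padj = 0.640; edgeR Padj = 0.460) and a 95% confidence interval of -0.50 to 1.89. The 3 Control libraries together held 40 counts and the 3 IDPN libraries 76.

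The list of dark and transitional cells, the non-sensory cells beside the endolymph, summed to 1912860 to 2832350 normalized counts in Control and 1222960 to 1353000 in IDPN libraries, mostly from Ptgds, which DESeq2 called lower and edgeR did not (Padj = 0.162). The part of this list in the Aqp2 level was not tested.

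Aqp2 was rich in GC, at 63.2% of its exon bases, and its neighbour Aqp5 had 61.8%. These lay above 99.3% and 98.4% of the genes with a mean of at least 100 normalized counts, a set that neither gene reached. Under GC offsets the levels of Aqp2 were 17.0, 15.1 and 13.6 in Control and 23.1, 19.1 and 24.4 in IDPN animals, still without overlap, and its log2 fold change was 0.55 (Padj = 0.746).

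Aqp2 lies in a cluster with Aqp5 and Aqp6 on the plus strand of chromosome 15. Aqp2 spans 99579055 to 99584547, Aqp5 99590782 to 99594829 and Aqp6 99601400 to 99605477, with gaps of 6234 and 6570 bp between them. The 3 neighbours did not share a level. Aqp5, a water channel of glands, had only 1, 6 and 6 counts in Control and 16, 8 and 5 in IDPN animals, and Aqp6, an intracellular channel known for passing anions, was listed at 0 in every library but IDPN 3, with 1 count. The Aqp5 groups overlapped, and its log2 fold change of 0.94 (SE 1.09, DESeq2 Padj = 0.756) had an interval of -1.20 to 3.07.

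The aquaglyceroporins were close to the detection limit. Aqp9, a glycerol and urea channel of liver and leukocytes, lies on chromosome 9 (71110659 to 71168682, minus strand) and had 1, 0 and 15 counts in Control and 7, 13 and 9 in IDPN animals. Control 3 thus held the highest Aqp9 count and Control 2 none. Its log2 fold change was 0.86 (SE 1.25, DESeq2 Padj = 0.819), with an interval of -1.59 to 3.31, and it was 3.93 with no adjusted p without Control 3. Aqp3, a glycerol channel of skin and kidney on chromosome 4 (41092722 to 41098183, minus strand), had 0 counts in all Control libraries and 0, 3 and 1 in the IDPN libraries. A count of 0 allowed up to 3 counts per library, or 0.0689 to 0.0741 CPM, so neither Aqp3 nor Aqp6 was measurable here and no fold change was given. The macrophage and neutrophil list, which holds cell types known for Aqp9, summed to 1853 to 2546 normalized counts in Control and 2115 to 3215 in IDPN libraries. Among its neutrophil markers, Ly6g was at 0, while S100a8 had 0, 16 and 5 counts in Control and 0, 14 and 0 in IDPN animals, and S100a9 had 0, 11 and 2 against 0, 19 and 0. Their part in the Aqp9 level was not tested.

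The other family genes were also close to or at 0. Aqp7, a glycerol channel of fat, had 2, 0 and 1 counts in Control and 0, 0 and 1 in IDPN animals. Aqp8, a channel of gut and liver, had 6, 2 and 2 against 2, 4 and 8. Mip, the lens aquaporin, and Aqp12, a pancreatic member, were at 0 in every library. DESeq2 gave none of the 4 an adjusted p.

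The make-up of the aquaporin counts is described here library by library, without a test. Aqp4 took 48.7%, 38.8% and 36.9% of the aquaporin counts in the Control libraries and 34.2%, 31.0% and 29.6% in the IDPN libraries. Aqp1 took 12.0%, 31.1% and 35.7% in Control and 36.9%, 34.4% and 49.0% in IDPN animals. The Aqp4 share was lower in every IDPN library than in any Control library, while the Aqp1 shares overlapped. Aqp11 took 37.8%, 28.9% and 25.6% in Control and 26.4%, 31.8% and 19.4% in IDPN animals. These shares do not depend on library scaling, and the 95% Wilson interval of each Aqp1, Aqp4 or Aqp11 share had a half-width of at most 3.13 percentage points, which covers counting error only.

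Set against each other, the counts of Aqp1 were 0.247, 0.802 and 0.970 of those of Aqp4 in the Control libraries and 1.08, 1.11 and 1.66 in the IDPN libraries. This ratio did not overlap between the groups, although Control 3 and IDPN 1 lay close together. For comparison, 22.5% of all tested genes had levels without overlap in either direction. No such figure was worked out for ratios or for shares of counts. The ratio of Aqp11 to Aqp4 did overlap, at 0.776, 0.745 and 0.694 in Control and 0.772, 1.02 and 0.656 in IDPN animals. A share falls when another member rises, so the lower Aqp4 share does not by itself show a lower Aqp4 level.

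**Figure D4:**
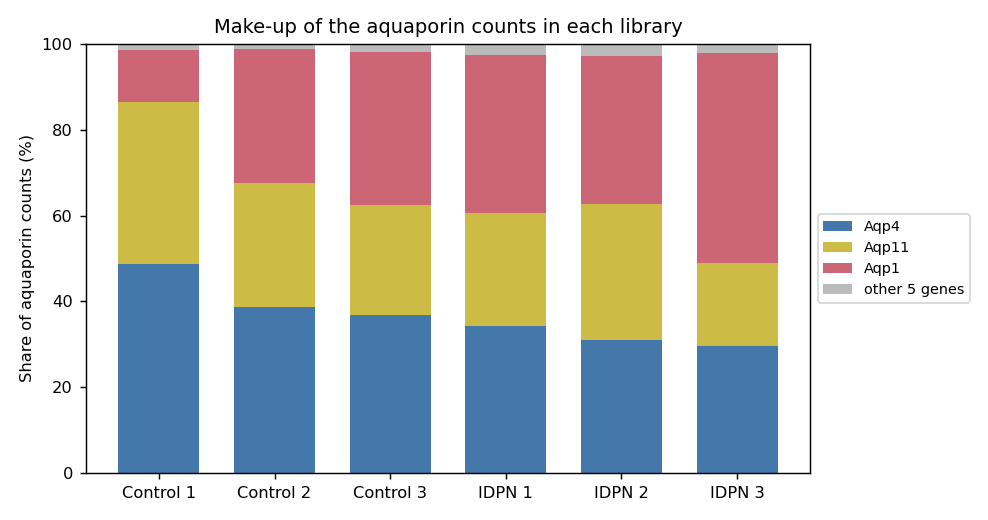
Share of all aquaporin counts (vertical axis, %) taken by Aqp4, Aqp11, Aqp1 and the other 5 genes together, in each library. The Aqp4 segment runs from 36.9% to 48.7% in Control and from 29.6% to 34.2% in IDPN libraries.

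The summed level of the 8 genes was 1180, 1818 and 1760 normalized counts in the Control libraries and 1681, 1622 and 1982 in the IDPN libraries. The groups overlapped, with Control 1 lowest and IDPN 3 highest as for Aqp1 alone. The means were 1586 ± 353 and 1762 ± 193 (SD, n = 3 each), a log2 ratio of 0.15 (two-sided exact permutation test, p = 0.6, smallest possible p 0.1). Without Control 1 the log2 ratio was -0.022, and without Aqp1 it was -0.13.

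Which aquaporin was most abundant per length depended on the length used. Per merged exon length, on the TPM scale (counts per length, rescaled to a common total), Aqp1 stood at 2.24, 9.41 and 14.1 in Control and 16.5, 11.4 and 22.3 in IDPN animals. Aqp4 stood at 3.82, 4.95 and 6.12 against 6.43, 4.32 and 5.67 on this scale, and Aqp1 was the highest in 5 of 6 libraries. Aqp11 followed at 1.96 to 3.29 TPM and Aqp2 at 0.425 to 1.14 TPM. With the median length of the coding transcripts (1275 bp for Aqp4 in place of 6233 bp), Aqp4 reached 10.7 to 16.9 TPM and was the highest in 6 of 6 libraries. On that second scale Aqp1 lay at 1.28 to 12.3 TPM and Aqp11 at 4.58 to 7.18 TPM, so these neighbours overlapped. Control 1 was the lowest library for Aqp1 on both scales.

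**Figure D5:**
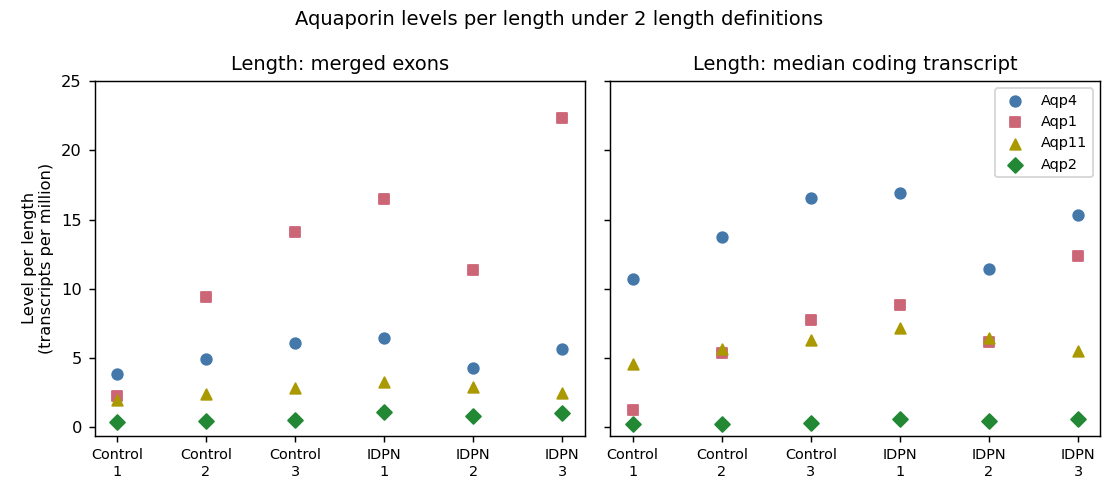
Level per length (vertical axis, TPM) of Aqp4, Aqp1, Aqp11 and Aqp2 in each library, with merged exon length on the left and median coding transcript length on the right. Aqp1 is highest in 5 of 6 libraries on the left, and Aqp4 in 6 of 6 on the right.

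Genes around Aqp4 were looked up in a list of 13 that form the dystrophin complex, which anchors Aqp4 at the membrane, or the potassium channel beside it. Of these, 1 rose and 1 fell, against 5.75% of all genes called. Sntb2, a syntrophin adaptor, had 298, 346 and 361 normalized counts in Control and 565, 546 and 622 in IDPN animals, with no overlap and a log2 fold change of 0.78 (SE 0.19, DESeq2 Padj = 0.00161). Utrn, the dystrophin-related protein utrophin, had 2236, 2302 and 2123 against 1597, 1410 and 1363, with no overlap and a log2 fold change of -0.61 (SE 0.15, DESeq2 Padj = 0.00282). The call of Utrn was lost without IDPN 2 (-0.58, Padj = 0.0190) and without IDPN 3 (-0.56, Padj = 0.0307), where the fold lay just under 1.5, and under total-count scaling (-0.34, Padj = 0.396), where it stood at -0.61 relative to the median gene. A DESeq2 test against the 1.5-fold threshold itself, which called 0.761% of genes, called neither Sntb2 nor Utrn (Padj = 1.0 for each). The median log2 fold change of the 13 genes was -0.10.

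The 15 genes that link vasopressin and cAMP to channels such as Aqp2 had 13 tested members, of which 0 were called by DESeq2 and 0 by edgeR. The receptors Avpr2 and Avpr1a were not tested for lack of counts. The lowest adjusted p belonged to Akap7, an anchor of protein kinase A, with 97.0, 255 and 192 normalized counts in Control and 284, 345 and 381 in IDPN animals and a log2 fold change of 0.89 (SE 0.31, DESeq2 Padj = 0.0595). It was called without Control 2 (1.21, Padj = 0.0129) and under total-count scaling (1.12, Padj = 0.0331). The kinase subunits Prkar2b (0.48), Prkacb (-0.34) and Prkar2a (0.32) followed with Padj of 0.184, 0.317 and 0.518. Of these, Prkar2b was called without IDPN 2 (0.64, Padj = 0.0363).

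Of 17 genes of osmotic response and cell volume, 0 were called by DESeq2 or edgeR. The 4 with the lowest adjusted p were Slc12a2, the sodium-potassium-chloride cotransporter NKCC1, at a log2 fold change of -0.54 (Padj = 0.151), Lrrc8b, a volume-regulated anion channel subunit, at 0.53 (Padj = 0.158), Trpv4, an osmosensitive cation channel, at 0.46 (Padj = 0.185), and Slc5a3, a myo-inositol transporter, at -0.43 (Padj = 0.190). Slc12a2 was called without IDPN 3 (-0.80, Padj = 0.0182), Lrrc8b without Control 3 (0.72, Padj = 0.0208), and Trpv4 under total-count scaling (0.72, Padj = 0.0455).

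Of 9 genes of glycerol handling, 1 was called, against 5.75% of all genes called. Gpd1, the cytosolic glycerol-3-phosphate dehydrogenase, rose from 365, 486 and 374 normalized counts in Control to 604, 651 and 617 in IDPN animals, with no overlap and a log2 fold change of 0.61 (SE 0.19, DESeq2 Padj = 0.0310). The edgeR test did not call it (Padj = 0.0682), nor did DESeq2 without Control 1 (Padj = 0.183), Control 3 (0.0690), IDPN 1 (0.0975), IDPN 2 (0.126) or IDPN 3 (0.115). It was also not called in the test against the 1.5-fold threshold (Padj = 1.0) or with GC offsets, where its log2 fold change was 0.58, just under that threshold.

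The 3 genes whose profile over the 6 libraries was nearest to that of Aqp4, among 12278 genes with a mean of at least 50 normalized counts, were Ids, Btbd9 and Klhl32. Their root mean square distances from Aqp4 were 0.045, 0.047 and 0.049 on the log2 scale, against a spread of Aqp4 itself of 0.15. With so small a spread, genes that varied little lay near. For Aqp1, chosen after its values were seen, the nearest were Nrarp, Otx1 and Sft2d3 at 0.20, 0.20 and 0.23, against a spread of 0.86. All 3 were lowest in Control 1 and highest in IDPN 3, as Aqp1 was, which is no separate result because they were selected for a like profile. For Sft2d3, IDPN 3 (766 normalized counts) barely exceeded IDPN 1 (765). The 6 libraries are few points, and the distances are given as a description.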

How the data were processed

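RNA was extracted from pooled vestibular epithelia, and 6 to 11 ng entered an oligo-dT protocol with 8 and 12 cycles of amplification and no molecular identifiers, so counting intervals cover counting error only. The authors aligned reads with STAR (2.5.3a) to GRCm38 and deposited RSEM (2.3.0) expected counts as whole numbers, with no normalization. RSEM splits reads shared between genes and counting was unstranded. No exon of the 8 aquaporins shared bases with an exon of another gene, although antisense genes span the 5' ends of Aqp4 and Aqp9. The main test was the DESeq2 Wald test (DESeq2 1.42.0, R 4.3.3), with treatment as its single term, its default size factors and Benjamini-Hochberg adjustment over all tested genes. The edgeR 4.0.16 quasi-likelihood test was the first alternative. Lengths and positions came from GENCODE M21, a later release than the authors' annotation (76 genes had no length). The labels give 1 batch. Sample codes start alike in all Control animals and differently in IDPN animals, and whatever this reflects cannot be told apart from treatment. Each library came from its own animal, and groups came from the treatment labels.

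Members, gene lists and tests were chosen with earlier results of these data known. Genes named by rule were the 8 members, the 4 other family genes, the called genes of each pathway list (where none was called, the 4 with the lowest adjusted p), and the 3 genes nearest to the most abundant member over the libraries. Genes low in Control 1, genes nearest to Aqp1 and single marker genes were named outside this rule, after their values were seen. The alternatives were edgeR, total-count size factors, genes with 10 counts in 3 libraries, no independent filtering, no Cook's distance filter, a test against the 1.5-fold threshold, protein-coding genes alone, and 1 library dropped at a time. GC offsets (lowess span 0.3), the second length measure and the sum without Aqp1 were chosen after seeing the data. A few genes of the lists are not reported here.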

Additional observations from a re-analysis of the deposited data

How the results depend on the processing

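The count of aquaporins called was 0 under every alternative run. The sum of the 8 genes changed direction without Aqp1 (log2 ratio -0.13, exact permutation p = 0.3) and ranged from -0.022 (without Control 1) to 0.26 (without Control 2) with 1 library left out. It was 0.39 under total-count scaling, 0.36 without Aqp4, 0.68 per merged exon length and 0.34 per median coding transcript length (exact permutation p from 0.2 to 0.3), against 0.15. Scaling by total counts turned Aqp4 (0.043) and Aqp11 (0.16), and Aqp11 ranged from -0.19 (without IDPN 2) to 0.015 (without IDPN 3). Aqp1, Aqp2, Aqp5 and Aqp9 kept their direction throughout, though Aqp1 ranged from 0.26 to 1.02 and Aqp9 from 0.28 to 3.93 with 1 library left out. Total-count scaling gave 1 called gene in the anchoring list, 1 in the vasopressin and cAMP list, 1 in the osmotic list and 2 in the glycerol list (Gpd1 and Mgll), and edgeR gave 0 in the glycerol list. With 1 library left out, the counts ranged from 1 to 3 in the anchoring list, from 0 to 1 in the vasopressin and cAMP list, from 0 to 1 in the osmotic list and from 0 to 1 in the glycerol list. The cause of these changes was not tested. No paired analysis was possible because the labels number no replicates. Aqp2, Aqp5 and Aqp9 had few counts and wide intervals, Aqp1 had a wide interval with many counts, and Aqp3 and Aqp6 were too low to measure.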
